A study of Mus musculus with 12 samples.

Results

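The 37 genes described here are cell cycle and DNA replication genes of mouse airway eosinophils, 20 that act in mitosis and 17 that act in DNA replication or in entry into S phase. They are the rows of the deposited count table whose gene symbol equals one of 37 listed names, 37 of 39666 rows in all, and each name had 1 row. RNA sequencing was done on eosinophils, granulocytes of allergic and antiparasitic responses, sorted from lung lavage. Each of 6 pooled lavages gave 1 TREM-1+ and 1 TREM-1- fraction, hence 12 libraries. TREM-1 is a surface receptor of myeloid cells.

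Both fractions came from wild-type (WT) C57BL/6 mice aged 8 to 12 weeks. All mice were sensitised on days 0 and 7 (20 µg ovalbumin, 4 mg alum). A 1% ovalbumin aerosol followed daily from day 16 to day 18, 40 minutes each time, and lavage was taken on day 19. No unchallenged animals are among the 12 libraries, and the lavages were pooled, so differences between single animals are not seen. The sort took cells with high side scatter that carried CD45, CD11b and Siglec-F and had low to intermediate CD11c and Ly6G. Each fraction is therefore a bulk sample of whatever cells passed that gate.

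Cells that divide copy their DNA once per cycle. The E2F factors switch on genes for S phase, among them the MCM subunits that form the replicative helicase, the sliding clamp Pcna, and the enzymes that supply deoxynucleotides. Many mitotic genes carry CHR and NF-Y elements in their promoters. The DREAM complex holds them silent in resting cells, and B-Myb with MuvB and FoxM1 switch them on later in the cycle: cyclins B, Cdk1, the Aurora and Polo kinases, kinesins and the spindle checkpoint. Eosinophils are made in the bone marrow, and mature eosinophils are regarded as non-dividing cells.

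Library totals ran from 8626701 to 21234053 estimated counts, so that 1 count corresponded to 0.0495 to 0.103 CPM (counts scaled to a library of fixed size). Trem1, whose protein defined the sort, averaged 30.7 ± 8.12 CPM in the TREM-1- and 93.1 ± 20.0 CPM in the TREM-1+ libraries (SD, n = 6), and was higher in TREM-1+ in 6 of 6 lavages. The 8 eosinophil marker genes summed to 8230 to 12700 CPM in TREM-1- and 7500 to 11800 CPM in TREM-1+ libraries. Their sum was lower in TREM-1+ in 6 of 6 lavages, with 5 of the 8 markers called lower and 2 higher. Cd24a was the largest part of the sum (5020 ± 1030 CPM in TREM-1-, 4400 ± 865 CPM in TREM-1+). When libraries were scaled by their totals alone, Il1rl1 and Ccr3 were still called lower, but Cd24a, Siglecf and Il5ra were not. Lavages 1 and 2 were closer to each other than any other lavages were (a chi-square per gene of 5.67 and 7.51 in the 2 fractions, against at least 23.0 for other pairs), yet differed by more than sampling noise, and were kept as separate lavages. Nothing in the labels says which mice went into which pool. The p-values between fractions rest on how the TREM-1+ minus TREM-1- difference varied among these lavages, not among single animals. Fewer cells of a type and less RNA per cell cannot be told apart in bulk samples.

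The promoter sequences show in what the mitotic and replication genes differ apart from their levels. Each sequence below is the 250 bases before the annotated start of the gene on the gene's own strand, taken from RefSeq's promoter table for build GRCm38.p6, and capitals mark matches to the elements searched. These were the CHR element (TTTGAA or TTCGAA), the NF-Y box (CCAAT) and an E2F core (GGCGGGAA or TTTGGCGC or TTTCGCGC or TTTCCCGC), on both strands, and neighbouring E2F matches may overlap. Mki67, Top2a and Cdk1 are shown as the mitotic gene of highest level, the tested mitotic gene of widest range between lavages, and the kinase that drives mitosis. They lie at chr7:135716380-135716629, minus strand, chr11:99024190-99024439, minus strand and chr10:69352913-69353162, minus strand. Rrm1, Mcm6 and Mcm2 are shown as replication genes that were higher in TREM-1+. They lie at chr7:102441445-102441694, plus strand, chr1:128359706-128359955, minus strand and chr6:88898781-88899030, minus strand.
Mki67: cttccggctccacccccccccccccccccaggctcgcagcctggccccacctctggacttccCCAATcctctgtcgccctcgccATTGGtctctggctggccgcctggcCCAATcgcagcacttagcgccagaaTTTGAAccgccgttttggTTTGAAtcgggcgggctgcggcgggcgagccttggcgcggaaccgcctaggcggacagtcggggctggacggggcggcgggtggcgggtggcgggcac
Top2a: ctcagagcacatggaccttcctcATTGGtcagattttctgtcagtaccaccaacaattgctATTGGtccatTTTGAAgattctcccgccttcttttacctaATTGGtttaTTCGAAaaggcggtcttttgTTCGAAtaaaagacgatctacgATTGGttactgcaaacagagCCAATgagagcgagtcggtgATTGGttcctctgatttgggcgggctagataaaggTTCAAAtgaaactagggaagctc
Cdk1: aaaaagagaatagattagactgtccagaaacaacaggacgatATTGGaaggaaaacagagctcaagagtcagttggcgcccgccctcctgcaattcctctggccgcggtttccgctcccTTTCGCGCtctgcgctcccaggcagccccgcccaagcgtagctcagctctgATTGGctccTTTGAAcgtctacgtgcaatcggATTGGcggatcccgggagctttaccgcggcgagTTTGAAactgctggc
Rrm1: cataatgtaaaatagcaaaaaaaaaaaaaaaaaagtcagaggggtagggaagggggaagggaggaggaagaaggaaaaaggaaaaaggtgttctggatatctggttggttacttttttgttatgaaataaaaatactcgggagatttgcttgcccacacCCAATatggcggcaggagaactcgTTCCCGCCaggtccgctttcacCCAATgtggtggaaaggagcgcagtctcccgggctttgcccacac
Mcm6: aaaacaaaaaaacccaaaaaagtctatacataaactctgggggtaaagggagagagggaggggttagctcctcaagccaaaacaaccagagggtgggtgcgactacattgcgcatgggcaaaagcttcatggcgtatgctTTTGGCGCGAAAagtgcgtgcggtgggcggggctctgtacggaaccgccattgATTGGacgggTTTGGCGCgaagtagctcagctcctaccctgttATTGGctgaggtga
Mcm2: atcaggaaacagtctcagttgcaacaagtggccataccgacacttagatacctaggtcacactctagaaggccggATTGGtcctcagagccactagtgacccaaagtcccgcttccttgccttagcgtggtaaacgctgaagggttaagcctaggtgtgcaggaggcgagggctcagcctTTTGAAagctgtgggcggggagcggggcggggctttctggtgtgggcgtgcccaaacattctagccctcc
The Top2a sequence held 4 CHR and 6 NF-Y matches, Mki67 held 2 and 3, and Cdk1 held 2 and 3 with 1 E2F match. Mcm6 held 3 E2F and 2 NF-Y matches, of which 2 E2F matches overlap, and Rrm1 held 1 E2F and 2 NF-Y matches. Mcm2 held 1 CHR and 1 NF-Y match. The table's entry for E2f1 is not shown, because 188 of its 250 bases are coding sequence of E2f1 itself in GENCODE vM21. That window lies 466 bases after the gene's first start. The windows of Mcm7 (539 bases) and Cdc6 (350 bases) also lie after their first starts, but hold no coding bases and were kept.

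Over the whole 300-base window, which also holds 50 bases after the start, 30 of the 37 genes had an entry, and without E2f1 there were 16 mitotic and 13 replication genes, none with coding bases of its own gene before the start. The share over all genes of the table was taken over every entry. CHR matched in 12 of 16 mitotic genes (75.0%) and 2 of 13 replication genes (15.4%), against 21.7% of the 27025 genes in the table. NF-Y matched in 14 mitotic genes (87.5%) and 8 replication genes (61.5%), against 41.1% of all genes. The E2F core matched in 1 mitotic gene (6.25%) and 7 replication genes (53.8%), against 4.0% of all genes. Both CHR and NF-Y matched in 12 of 16 mitotic genes, against 9.65% of all genes, and neither matched in Birc5 or Nusap1. Ccna2, Ccne2, Mcm4, Tpx2, Kif20a, Gins2 and Aurkb had no entry. A match is a run of letters and does not show that a factor binds there.

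**Figure D1:**
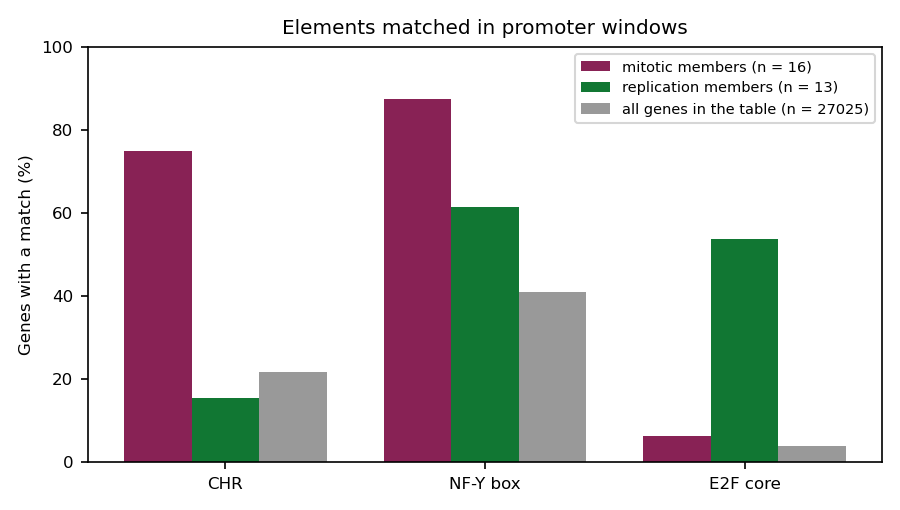
Share of genes (%) with at least 1 match to the CHR element, the NF-Y box or the E2F core in the 300-base promoter window, for 16 mitotic genes, 13 replication genes and all 27025 genes of the table. CHR matched in 75.0% of the mitotic and 15.4% of the replication genes, and the E2F core in 6.25% and 53.8%.

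Most mitotic genes were present at very low levels. The median over the 20 mitotic genes was 1.45 CPM, with 14 of them under 2 CPM and 18 under 5 CPM, whereas the 17 replication genes had a median of 6.58 CPM and ranged from 1.07 to 33.8 CPM. The median of the 18302 genes that passed the filter on low counts was 8.31 CPM, whereas the mitotic median also covers 5 genes that failed it. Per kilobase of the longest annotated transcript, a scale on which genes can be compared, the medians were 0.441 CPM per kb for mitotic and 2.1 CPM per kb for replication genes.

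Mki67, which encodes the proliferation antigen Ki-67, and Birc5, which encodes the chromosomal passenger protein survivin, stood apart from the other mitotic genes. Mki67 averaged 63.1 CPM over the 12 libraries and made up 50.5% to 65.9% of the summed mitotic CPM of a library. Birc5 averaged 15.8 CPM and made up 13.1% to 16.8%. The other 18 mitotic genes each averaged less than 5 CPM. Ki-67 has a long messenger RNA, with a longest transcript of 10.1 kb, and per kilobase its level was 6.27 CPM per kb, near those of Cdt1 (5.26), E2f1 (5.14) and Birc5 (4.74 CPM per kb). Top2a, the topoisomerase that untangles sister chromatids, was at 0.458 CPM per kb. Pcna was the highest of the 37 genes on the per-length scale, at 22.2 CPM per kb.

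The kinase and cyclin pair that drives mitosis was sparsely detected. Ccnb1, which encodes cyclin B1, had 0 to 14 counts per library and 76 counts over all 12. It had no count in the TREM-1- library of lavage 6 and the TREM-1+ library of lavage 3, which allows levels of up to 0.182 and 0.203 CPM, from counting error alone. Cdk1 had 20 to 52 counts, with 1.14, 1.55 and 1.96 CPM as lowest, median and highest TREM-1- values and 1.23, 1.74 and 4.0 CPM in TREM-1+. Ccna2, the cyclin A2 gene, had 18 to 53 counts. Cdk1 and Ccna2 ranges overlapped between the fractions.

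Ccnb1, Cenpe, Aurkb, Bub1 and Nusap1 did not pass the filter on low counts and were not tested between fractions. Cenpe encodes a kinetochore motor, Aurkb the kinase of the chromosomal passenger complex, Bub1 a spindle checkpoint kinase and Nusap1 a spindle protein. Their totals over the 12 libraries were 85, 52, 36 and 160 counts. Aurkb had more CPM in TREM-1+ in 6 of 6 lavages, on 0 to 11 counts per library. All 5 untested genes are mitotic, and all 17 replication genes passed.

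**Figure D2:**
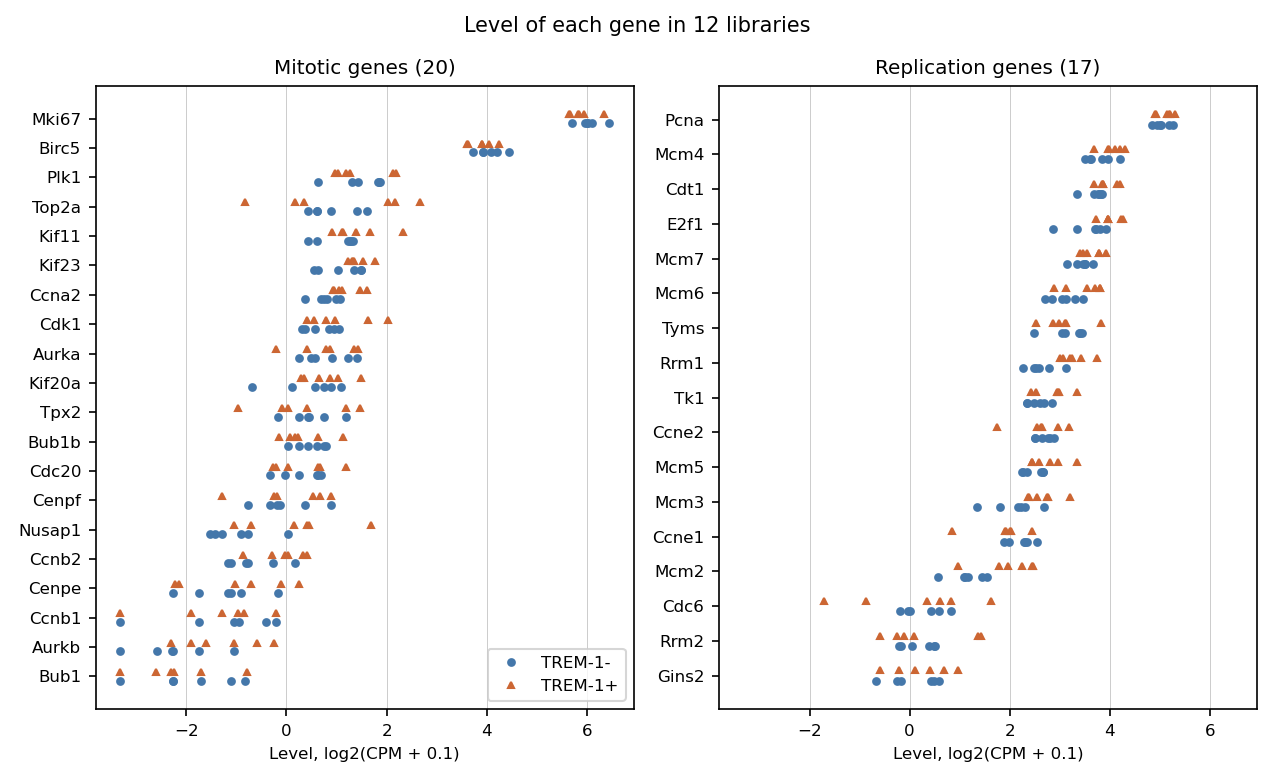
Level of each of the 37 genes as log2(CPM + 0.1), with 1 point per library (6 TREM-1-, 6 TREM-1+), genes ordered by mean level. Mki67 (52.3 to 87.4 CPM in TREM-1-, 49.7 to 80.6 CPM in TREM-1+) and Birc5 lie above all other mitotic genes, and Ccnb1, Aurkb and Bub1 reach 0 counts at the left edge.

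The licensing and S-phase genes formed a graded series. Pcna, which encodes the clamp that holds polymerases on DNA, was lowest at 28.5, median 32.2 and highest at 38.5 CPM in TREM-1-, and 30.0, 35.8 and 39.1 CPM in TREM-1+. The 6 helicase subunits averaged 15.2 (Mcm4), 11.7 (Mcm7), 9.93 (Mcm6), 6.17 (Mcm5), 5.36 (Mcm3) and 3.13 CPM (Mcm2). Per kilobase they ran from 0.896 for Mcm2 to 4.24 CPM per kb for Mcm4, although the helicase contains each subunit in equal number. Rrm1, the large subunit of ribonucleotide reductase, averaged 7.99 CPM over the 12 libraries, whereas its partner Rrm2, the subunit whose level is tied to S phase, had 10 to 38 counts per library. Cdc6, a loader of the helicase, had 3 to 34 counts and Gins2, a subunit of the active helicase, 8 to 27.

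Between the fractions, 5 of the 17 replication genes were higher in TREM-1+ (Rrm1, Mcm2, Mcm3, Mcm6 and E2f1) and none was lower, by edgeR's quasi-likelihood test with lavage as a block and a Benjamini-Hochberg adjusted p below 0.05. Among all 18302 genes tested, 3.1% were higher in TREM-1+ and 6.72% lower. Of the 15 mitotic genes tested, Mki67 was lower and none was higher. The log2 fold change (TREM-1+ minus TREM-1-) was above 0 in 13 of 17 replication genes and in 9 of 15 mitotic genes. Its median was 0.22 (range -0.34 to 0.89) in replication and 0.11 (-0.17 to 0.66) in mitotic genes, against 0 in all genes. The median standard error was 0.16 for replication and 0.31 for mitotic genes. Without lavage as a block none of the 37 genes passed, and in lavages 3 to 6 alone Rrm1 alone did.

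**Figure D3:**
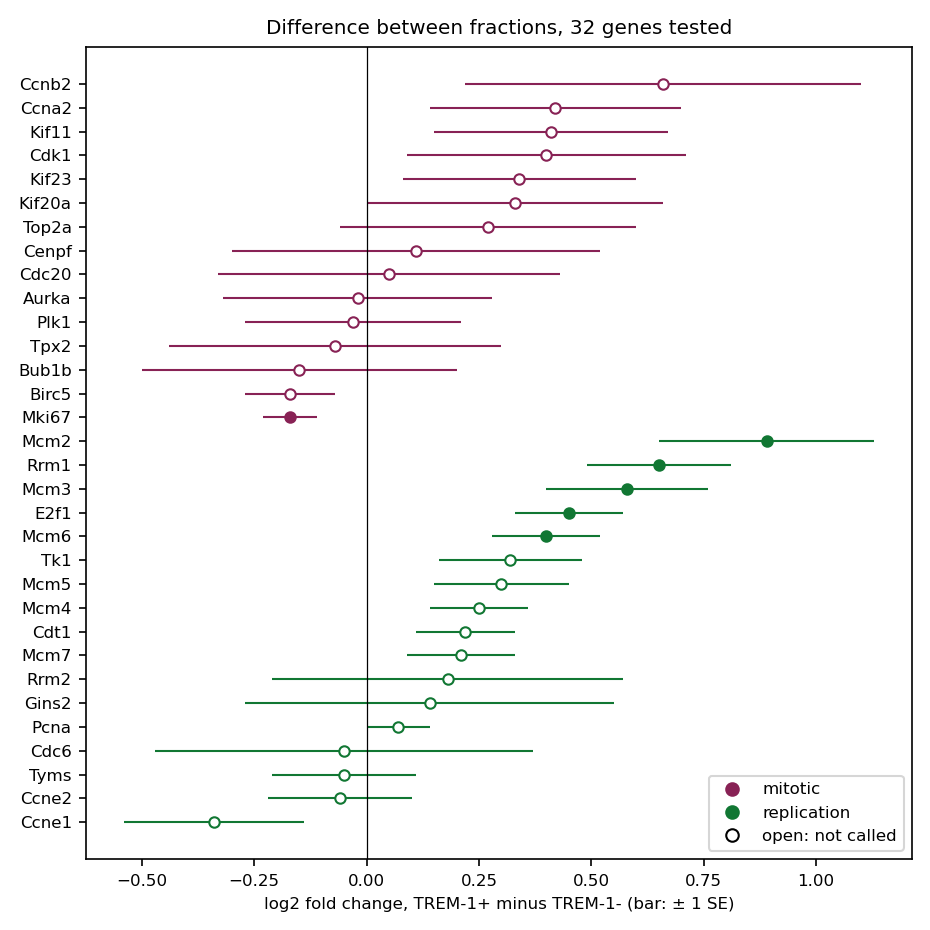
log2 fold change of TREM-1+ minus TREM-1- with 1 SE for the 32 genes tested, mitotic genes above and replication genes below, filled points passing an adjusted p of 0.05. The 5 filled replication points lie between 0.40 and 0.89 and the filled mitotic point, Mki67, at -0.17.

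Rrm1 (gene identifier 20133) had a lowest, median and highest level of 4.68, 5.77 and 8.63 CPM in TREM-1- and 7.9, 9.28 and 13.3 CPM in TREM-1+. It was higher in TREM-1+ in 5 of 6 lavages, all but lavage 5, and the ranges overlapped through the TREM-1- library of that lavage. The log2 fold change was 0.65 ± 0.16 (SE), a 1.57-fold difference, with an adjusted p of 0.00673 by edgeR and an exact two-sided sign-flip permutation p of 0.0625 over the 6 pairs. Rrm1 kept an adjusted p below 0.05 when any 1 lavage was left out, but not without lavages 3 and 4 together, where the log2 fold change was 0.38, nor in lavages 1 and 2 alone, where it was 0.51.

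Mcm2 (17216) had 1.39, 2.09 and 2.83 CPM as lowest, median and highest in TREM-1- and 1.85, 4.25 and 5.41 CPM in TREM-1+. All TREM-1+ libraries but that of lavage 4, which held 18 counts, lay above every TREM-1- library. The log2 fold change was 0.89 ± 0.24, the highest of the 32 genes tested (edgeR adjusted p = 0.0121). The call was lost without lavage 1 (0.82), 5 (0.79) or 6 (0.79).

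Mcm3 (17215) had 2.44, 4.48 and 6.31 CPM in TREM-1- and 5.03, 6.2 and 9.14 CPM in TREM-1+, in the same order. It was higher in 5 of 6 lavages, all but lavage 3, and the ranges overlapped. On the log2 scale TREM-1+ was higher by 0.58 ± 0.18 (edgeR adjusted p = 0.0389). Leaving out lavage 1, 2, 4 or 5 ended the call, at 0.59, 0.58, 0.52 and 0.42, as did DESeq2 and limma-voom.

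Mcm6 (17219) had 6.46, 8.38 and 11.0 CPM in TREM-1- and 7.32, 12.2 and 13.9 CPM in TREM-1+, and was higher in 6 of 6 lavages with overlapping ranges. Its log2 fold change was 0.40 ± 0.12 (edgeR adjusted p = 0.0304). The call was lost without lavage 1, 3, 4, 5 or 6, at 0.36 to 0.41.

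E2f1 (13555), the transcription factor that acts on many S-phase genes, had 7.18, 13.1 and 15.1 CPM in TREM-1- and 13.1, 15.6 and 19.1 CPM in TREM-1+. It was higher in 6 of 6 lavages, by 1.03- to 1.83-fold, and the ranges overlapped. The log2 fold change was 0.45 ± 0.12 (edgeR adjusted p = 0.0089), and the exact sign-flip permutation p was 0.0312, the smallest that 6 pairs can give. Only leaving out lavage 6, of the single lavages, ended the call (0.37).

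Mki67 (17345) was the 1 gene of the 32 tested that was called lower in TREM-1+. Its levels were 52.3, 64.9 and 87.4 CPM in TREM-1- and 49.7, 57.2 and 80.6 CPM in TREM-1+, lower in 6 of 6 lavages by 0.724- to 0.978-fold, with ranges that overlapped almost throughout. Its log2 fold change was -0.17 ± 0.06 (edgeR adjusted p = 0.0475), and the exact sign-flip permutation p was 0.0312. The call was lost without any 1 of the 6 lavages, with DESeq2, with limma-voom and when libraries were scaled by their totals alone, where the log2 fold change was -0.04. Birc5 was also lower in 6 of 6 lavages, with a log2 fold change of -0.17 ± 0.10 that did not pass (edgeR adjusted p = 0.365, interval -0.37 to 0.03 at 95%).

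**Figure D4:**
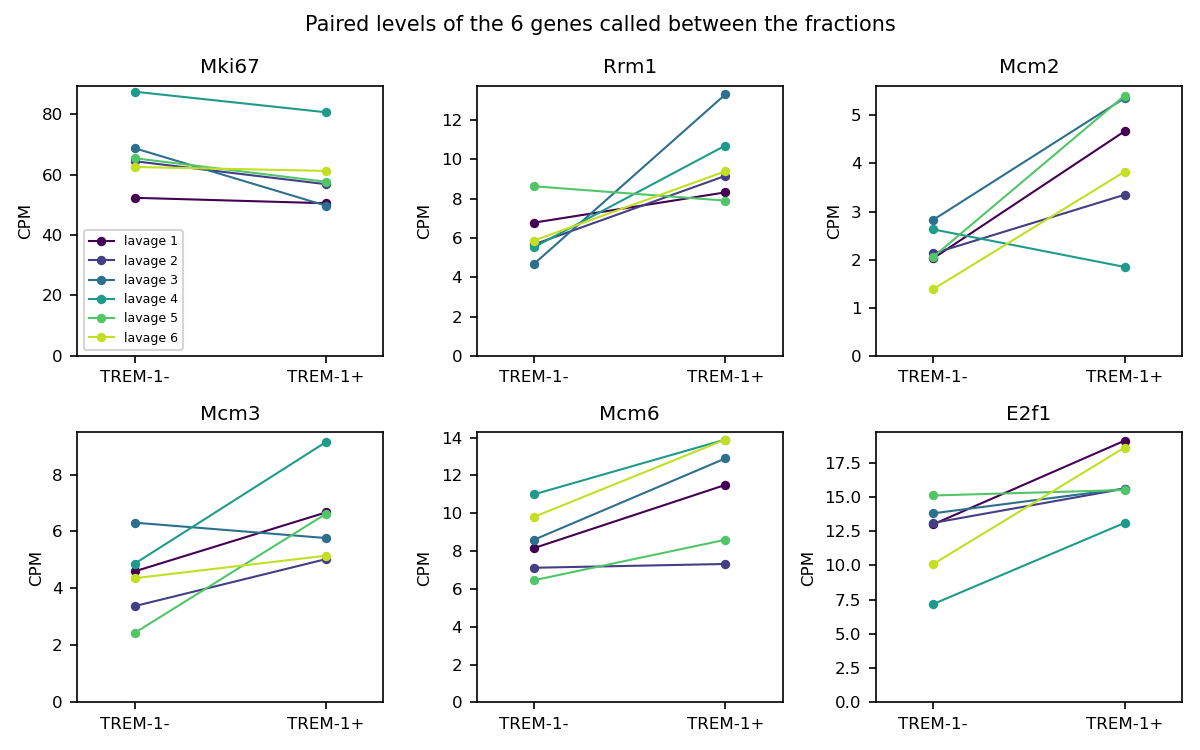
CPM of the 6 genes called between the fractions, with 1 line per lavage from its TREM-1- to its TREM-1+ library and axes that start at 0. Mcm6 and E2f1 rise in all 6 lavages, Rrm1, Mcm2 and Mcm3 in 5, and Mki67 falls in all 6.

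Of the other replication genes, Mcm5 (0.30 ± 0.15, adjusted p = 0.275) and Tk1, the salvage thymidine kinase (0.32 ± 0.16, adjusted p = 0.238), were higher in 6 of 6 lavages without passing edgeR's test. With Mcm6 and E2f1 that made 4 of 17 replication genes higher in every lavage and none of the 15 tested mitotic genes, against 5.08% of all genes tested. Lower in every lavage were Mki67 and Birc5 among the mitotic genes and no replication gene, against 8.31% of all genes. No gene of the 32 had fractions whose ranges did not overlap, against 0.951% of all genes.

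Mcm4 (0.25 ± 0.11, adjusted p = 0.176), Mcm7 (0.21 ± 0.12, 0.359) and Cdt1 (0.22 ± 0.11, 0.246), the licensing factor, had positive values that did not pass edgeR's test. Pcna had a log2 fold change of 0.07 ± 0.07 (edgeR adjusted p = 0.700), higher in 3 of 6 lavages, with a 95% interval of -0.08 to 0.22 that covers at most a 1.16-fold difference. Ccne1 and Ccne2, the cyclins E that start S phase with Cdk2, had -0.34 ± 0.20 and -0.06 ± 0.16, and neither passed. Tyms, which makes thymidylate, had -0.05, and Rrm2, Cdc6 and Gins2 had standard errors of 0.39 to 0.42. Tests of differences between one gene's fold change and another's were not made, so Rrm1 and Rrm2, or Mcm2 and Mcm4, are not shown to differ.

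Apart from Birc5, the mitotic genes that did not pass had standard errors of at least 0.24. Ccnb2 had the highest value, 0.66 with a 95% interval of -0.25 to 1.57, and Cdk1 had 0.40 with -0.24 to 1.04. For Kif11, a spindle motor, the interval was -0.12 to 0.95, and for Plk1, the Polo kinase, -0.52 to 0.46. The remaining tested mitotic genes were Ccna2, the kinesins Kif20a and Kif23, the kinetochore gene Cenpf, the Aurora A kinase gene Aurka, the checkpoint genes Bub1b and Cdc20 and the spindle gene Tpx2. Their log2 fold changes ran from -0.15 in Bub1b to 0.42 in Ccna2, with edgeR adjusted p-values of 0.458 to 0.984. The value of E2f1, 0.45, lies within the intervals of Ccnb2, Cdk1, Kif11 and Plk1, which therefore do not exclude a change of that size.

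Summed over the class, the 17 replication genes came to 138 ± 5.43 CPM (131 to 145) in TREM-1- and 163 ± 9.29 CPM (155 to 177) in TREM-1+, 1.1- to 1.24-fold higher in each of the 6 lavages. The 20 mitotic genes came to 106 ± 15.9 and 102 ± 17.1 CPM, higher in TREM-1+ in 2 of 6 lavages. Without Mki67 and Birc5, a split made after their values were seen, the mitotic sum was 22 ± 3 and 27.3 ± 5.76 CPM, with TREM-1+ higher in 6 of 6 lavages by 1.02- to 1.46-fold.

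By lavage, the median log2 difference of the replication genes was above 0 in each, from 0.11 in lavage 1 to 0.40 in lavage 4. That of the 15 tested mitotic genes was -0.10, -0.06, 0.38, 0.41, 0.03 and -0.03 in lavages 1 to 6, highest in lavages 3 and 4. Without those lavages the replication median fell from 0.22 to 0.11, and the genes called were Mcm2, Mcm3 and E2f1.

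Between lavages, Mki67 (edgeR adjusted p = 2.2e-05), Mcm6 (0.0111), Top2a (0.012) and Birc5 (0.0201) differed, 4 of 32 genes tested, against 36.9% of all genes. The 32 were measured less precisely, with a median standard error between fractions of 0.24 against 0.14 in all genes. The smaller share is thus no measure of stability. Each lavage had only its 2 fractions as libraries. These p-values therefore set lavages against how far the fractions of a pool disagreed, not against repeat pools or single animals. Without lavage 4 the 4 became 2, Top2a and Mcm6, and without lavage 3 they became 6. The mean of the 2 fractions of Mki67 ran from 51.4 CPM in lavage 1 to 84.0 CPM in lavage 4, a 1.63-fold range, and that of Birc5 from 12.7 to 20.2 CPM in the same lavages. In the other 5 lavages Mki67 lay between 51.4 and 61.9 CPM. Top2a had a 4.65-fold range, from 0.948 CPM in lavage 1 to 4.41 CPM in lavage 4. In lavages 3 to 6 alone, Mki67 was the 1 gene that differed of the 33 then tested.

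In the TREM-1+ libraries Top2a was at 0.462, 1.17, 4.0, 6.26, 4.39 and 1.03 CPM in lavages 1 to 6, and in TREM-1- at 1.43, 1.25, 1.42, 2.57, 2.93 and 1.76 CPM. It was thus higher in TREM-1+ in lavages 3, 4 and 5 and lower in the others, and was not called between fractions (0.27 ± 0.33, edgeR adjusted p = 0.749). Markers of T and innate lymphoid cells also differed by lavage. Their 9 genes in the table summed to 9.6, 8.78, 52.7, 64.1, 37.8 and 33.4 CPM in TREM-1- and to 11.8, 10.3, 125, 103, 72.4 and 58.2 CPM in TREM-1+ in lavages 1 to 6, and 7 of 9 were higher in TREM-1+. Both Top2a and the marker sum were low in lavages 1 and 2, whereas in lavage 6 the marker sum was higher in TREM-1+ and Top2a lower. Their part in the values of Top2a and of the other genes was not tested.

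**Figure D5:**
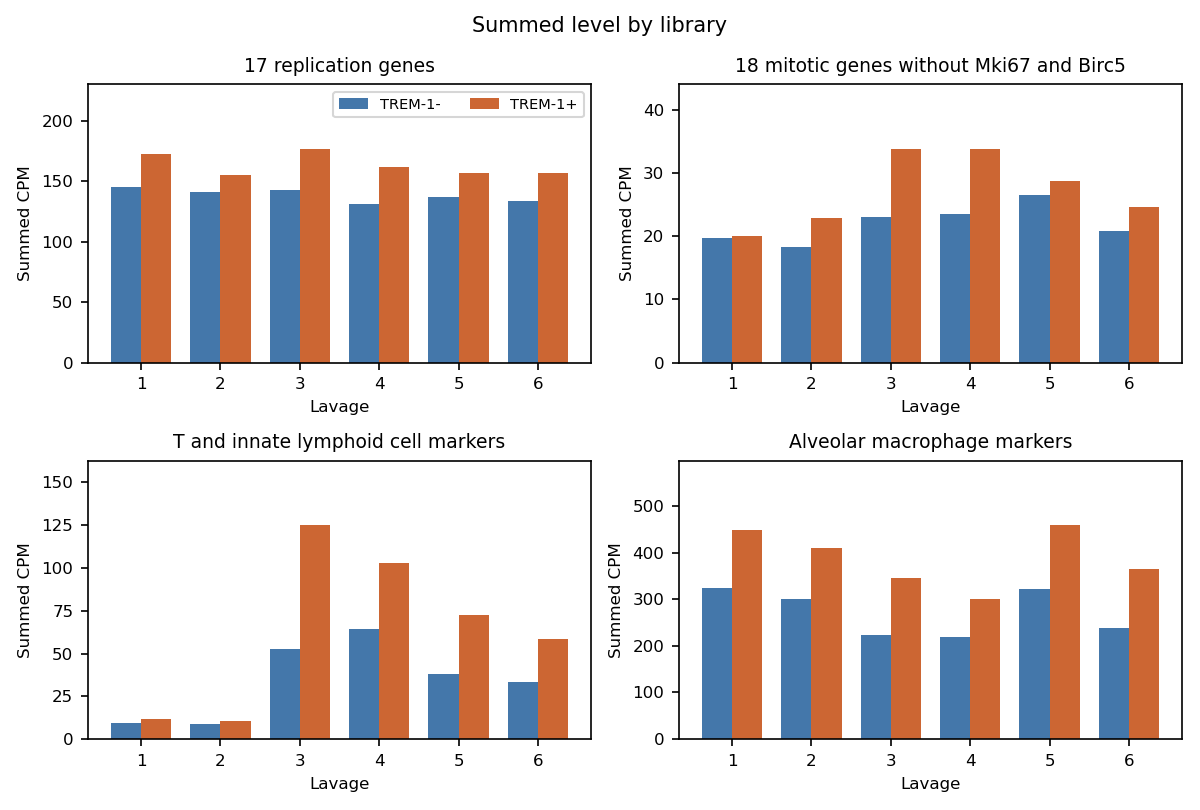
Summed CPM by lavage in the TREM-1- and TREM-1+ libraries for the 17 replication genes, the 18 mitotic genes other than Mki67 and Birc5, and the markers of T and innate lymphoid cells and of alveolar macrophages. The replication sum is higher in TREM-1+ in all 6 lavages, and the T and innate lymphoid marker sum is lowest in lavages 1 and 2. Most of the alveolar macrophage sum is Car4.

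Markers of other cells differed between the fractions too. Of 10 alveolar macrophage markers, 7 were tested and 4 were higher in TREM-1+. The 10 summed to 218 to 324 CPM in TREM-1- and 300 to 459 CPM in TREM-1+, higher in 6 of 6 lavages. Most of that sum was Car4 (201 ± 44.3 CPM in TREM-1-, 318 ± 71.5 CPM in TREM-1+). Pparg, Atp6v0d2 and Plet1, also called higher, averaged only 4.16, 3.11 and 2.76 CPM in TREM-1-. The sum therefore mainly follows 1 gene and is no measure of macrophage content. Ear2 went the other way in 6 of 6 lavages (42.5 ± 14.8 to 22.9 ± 10.4 CPM), without passing edgeR's test (adjusted p = 0.0505). Of 12 markers of immature granulocytes, 5 were tested and 4 were higher (Ngp, Ltf, Cd34 and Kit), with sums of 481 to 883 and 613 to 1130 CPM. They were not chosen as markers of division. The other 7 did not pass the filter on low counts. Most of the sum was Cd34 (354 ± 53.6 to 434 ± 50.1 CPM) and Chil3 (151 ± 171 to 305 ± 245 CPM), and Chil3 was not called. The promyelocyte genes Elane and Ctsg of that list had 0 counts in every library. Neutrophil markers were mixed, 5 of 7 higher and 2 lower. Their sum, mostly Retnlg, was lower in TREM-1+ in 6 of 6 lavages (1740 to 2540 CPM in TREM-1-, 1410 to 2380 CPM in TREM-1+). Of 7 dendritic cell markers tested, 2 were higher. When the 4 libraries of lavages 1 and 2 were fitted alone, with 1 residual degree of freedom, Mcm2 and E2f1 passed edgeR's test and Rrm1 (adjusted p = 0.0765), Mcm3 (0.121) and Mcm6 (0.386) did not. These 2 lavages were the closest to each other, so that fit may understate the spread among pools. It called 1567 genes in all, against 1168 in lavages 3 to 6 alone. Over all lavages, the T and innate lymphoid, alveolar macrophage, immature granulocyte and dendritic cell sums were each higher in TREM-1+ in 6 of 6. The eosinophil and neutrophil sums were lower in each, and those of the other lists were mixed. The part of these cells in the higher replication genes was not tested.

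Further genes of the same pathways were read from the same fit. Of 64 other mitotic genes 48 were tested and 3 were higher in TREM-1+, and of 56 other replication genes 47 were tested and 3 were higher, against 3.1% of all genes, with none lower in either list and a median log2 fold change of 0.11 in each. The mitotic count fell to 0 without lavage 6 and to 1 without lavage 3 or 4, and the replication count to 1 without lavage 2, 3, 5 or 6. Both were 0 without lavages 3 and 4 together. With library totals alone they were 6 and 8, but 1880 of 18302 genes were then higher, against 568 in the main fit. The mitotic ones were Incenp, the scaffold of the chromosomal passenger complex (8.75 ± 1.55 to 11.6 ± 1.65 CPM, 0.41 ± 0.12), Ncapd2, a condensin subunit (4.28 to 6.6 CPM, 0.58 ± 0.17), and Tubb4b, a tubulin made in many cells (70.6 to 79.7 CPM, 0.18 ± 0.06). The replication ones were Orc1 and Orc3, subunits of the origin recognition complex (0.93 ± 0.27 from 1.59 to 2.95 CPM, and 0.20 ± 0.06 from 48.2 to 55.6 CPM), and Dbf4, the activator of the Cdc7 kinase (0.93 ± 0.29 from 1.5 to 2.91 CPM). The 6 edgeR adjusted p-values ran from 0.0207 for Incenp to 0.0365 for Dbf4.

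Of 17 tested G1 cyclins, kinases and E2F factors, which act before S phase, 3 were lower in TREM-1+ and none higher. These were Ccnd3, the cyclin D3 gene (244 ± 46.9 to 196 ± 38.2 CPM, -0.32 ± 0.04), E2f3 (88 ± 21.4 to 69.6 ± 17.2 CPM, -0.34 ± 0.05) and Cdk6, the partner of cyclin D (657 ± 86.8 to 583 ± 77 CPM, -0.17 ± 0.03), each lower in 6 of 6 lavages, where 6.72% of all genes tested were lower in the fit.

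Of 29 tested brakes and quiescence regulators 4 were lower and none higher, against 6.72% and 3.1% of all genes: Btg1 (-0.18 ± 0.03), Cdkn2d (-0.28 ± 0.06), which encodes the Cdk4/6 inhibitor p19, Gadd45b (-0.31 ± 0.09) and Cdkn1a (-0.19 ± 0.06), which encodes the Cdk inhibitor p21. The count of lower brakes fell to 2 without lavage 3 and to 1, with 1 higher, in lavages 3 to 6 alone. Scaling by library totals alone, which moved the median of all genes up by 0.13, left Ccnd3 (-0.19) and E2f3 (-0.21) lower but none of the 4 brakes or Cdk6 (-0.04), and made 3 brakes and 1 gene of the G1 list higher. The 5 replication genes passed under that scaling, along with Mcm4 and Cdt1, where 1880 of all 18302 genes were called higher.

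Of the 37 genes, 9 have exons that overlap an annotated gene on the opposite strand, among them Mcm7, Tk1, Ccna2, Plk1, Ccne2 and Gins2, and none of the 6 called genes is among the 9. Tyms has a listed pseudogene, Tyms-ps, with 266 counts in all against 1779 for Tyms, and reads may be shared between the pair.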

How the data were processed

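Per the labels' protocols, stranded libraries were prepared from ribosome-depleted total RNA and read as 100-base pairs. The deposited table holds estimated counts per gene from kallisto 0.45.0 against build GRCm39, per the submitters' processing notes, where edgeR 3.42.4 and R 4.3.0 are also named. The annotation and the strand setting are not given in the sources used here. A second table of log-scale CPM was not used.

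Counts were rounded to whole numbers. Genes passing filterByExpr by group (minimum count 10, minimum total 15) were fitted in edgeR 4.0.16 (R 4.3.3) with TMM factors, lavage as a block and robust quasi-likelihood dispersions, and p-values were adjusted by Benjamini-Hochberg over all 18302 genes. CPM used TMM library sizes, and lengths are the longest GENCODE vM21 transcript. Single genes also had an exact two-sided sign-flip permutation test over 6 pairs. The series' design text states that both fractions of a lavage were sorted from the same pool, and libraries of a lavage deviated together, with correlations of 0.13 to 0.50, and correlated best within their lavage in 5 of 6, lavage 3 (0.13) being the exception. Alternatives were no block, other scalings and filters, DESeq2 1.42.0, limma-voom (limma 3.58.1) and left-out lavages. Filtering by the model, and leaving out lavages in the test between lavages, were added after seeing the data. The scripts were tested on simulated data.

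Genes named with values are all those called, the 5 of highest level in each class, well-known members and those that failed the filter, and in each pathway list the called genes of smallest p, at most 6. Values for Ccna2, Ccnb2, Tk1, Tyms, Rrm2, Cdc6 and Gins2, outside this rule, were added after they were seen. The members and lists were chosen with earlier results of these data known. Trac, Trbc2 and Igkc matched no symbol. Of the marker lists, B and plasma (3 tested), epithelial (3), mast and basophil (3) and erythroid cells (1) had no gene called, monocyte and interstitial macrophage markers had 3 higher and 1 lower of 6, and eosinophil markers 2 higher and 5 lower of 8.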

Additional observations from a re-analysis of the deposited data

Results flagged for a closer look

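Among 64 groups of 6 libraries looked at (32 genes in each fraction), 3 held a library whose gap to its nearest neighbour took up more of the group's range than Dixon's critical value for 6 values at 95% allows. Chance gives about 1 in 20 such groups. Mki67 was at 80.6 CPM in the TREM-1+ library of lavage 4, where the other 5 lay between 49.7 and 61.2 CPM. Tyms was at 14 CPM in the TREM-1+ library of lavage 3, with the others at 5.65 to 8.6 CPM. Cdt1 was at 10 CPM in the TREM-1- library of lavage 4, with the others at 12.8 to 14.3 CPM.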

How the results depend on the processing

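In the paired design, removing the replicate block left 83 genes called instead of 1797, with 0 mitotic and 0 replication genes among them. No gene of the 37 that was called changed direction under any alternative run. The 1 mitotic call was lost (0 called) without the block, with library totals alone, with DESeq2, with limma-voom, in lavages 1 and 2 alone, in lavages 3 to 6 alone and without lavages 3 and 4, and leaving out each lavage gave 0 to 0. The replication calls, 5 in all, became 2 to 5 when each lavage was left out, 2 in lavages 1 and 2 alone, 1 in lavages 3 to 6 alone and 3 without lavages 3 and 4, the cause not tested beyond there being fewer libraries. Lavages 3 to 6 alone gave 1168 genes called between fractions, and 2916 genes that differed between lavages, with 1 of the 33 members then tested, and leaving out each lavage, added after seeing the data, gave 2 to 6 members that differed. The median log2 difference of the replication genes was 0.35 with library totals alone, which moved all genes by 0.13, and 0.11 without lavages 3 and 4. That scaling gave 1880 genes higher and 376 lower (16.7% lower, against 68.4%). DESeq2 and limma-voom each called Rrm1, Mcm2, Mcm6 and E2f1. The low counts of most mitotic genes limit what can be seen there.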
